A study of Mus musculus with 7 samples.

Results

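Prostaglandin synthesis, breakdown and reception were followed through 10 genes in marrow cells sorted by a reporter of osteocalcin or of osterix. The genes were Ptgs1, Ptgs2, Ptges, Ptgds, Hpgds, Ptgis, Hpgd, Ptger2, Ptger3 and Ptger4, chosen by their symbols in the array's annotation. Of these 10 genes, 9 had a probe set with a single gene symbol, 15 probe sets in all, among 12393 genes on the array. Ptgs1, the constitutive cyclooxygenase, was not analysed here. Where a gene had several probe sets, the one with the highest mean over the 7 arrays stands for it and the others are given beside it.

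Both groups came from OsxCre-mCherry;OcnCre-Topaz double transgenic mice aged 4 to 6 weeks, sorted by flow cytometry from bone marrow stroma 6 days after tamoxifen. The Ocn+ group, titled Topaz Osteocalcin, held 3 arrays of cells sorted by the Topaz reporter of the OcnCre transgene, named for osteocalcin, and the Osx+ group, titled mCherry Osterix, held 4 arrays of cells sorted by the mCherry reporter of the OsxCre transgene, named for osterix. The labels do not give the promoter lengths or the clone of either transgene. Every array therefore carries both transgenes and the same tamoxifen exposure, and cells with both reporters were not analysed here. The labels do not say which arrays came from the same or from separate animals, so p-values reflect the spread between samples alone, and that spread may be technical. Values are log2 signals, in which 1 unit is a doubling, on a scale that ran from 3.00 to 15.4 with array medians of 8.25 to 8.35. The number of arrays limits the precision.

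Prostaglandins are short-lived lipid signals made from arachidonic acid. Cyclooxygenases turn arachidonic acid into the intermediate prostaglandin H, and terminal synthases turn that into the E, D or I form, the last being prostacyclin. The dehydrogenase Hpgd inactivates them, and each form acts on its own G protein-coupled receptors. In bone, prostaglandin E made by osteoblasts acts on the same cells and on osteoclast formation, mainly through the receptors encoded by Ptger2 and Ptger4.

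Features of the arrays as a whole bear on every value below. The bone identity markers were bright in both groups, with the mean of 8 of 12 listed genes measured lying between 13.18 and 13.72 in Ocn+ and between 12.78 and 13.75 in Osx+ arrays. Sp7, the gene of osterix, stood at 12.26 to 12.93 in Ocn+ and 12.15 to 12.83 in Osx+ arrays and did not separate the groups. The osteocalcin genes Bglap and Bglap2 were among the listed genes not measured, so osteocalcin could not be compared. Markers of other cells were also present, none of them called after adjustment. At an unadjusted limma p under 0.05, which 3.48% of all genes reached with a higher and 1.83% with a lower mean in Ocn+ cells, 8 of 12 neutrophil, 5 of 7 osteoclast, 10 of 12 endothelial and 2 of 5 eosinophil markers were higher in Ocn+ cells, as were 2 of 9 lymphoid markers, while 1 of 10 mural and fibroblast markers was higher and 1 lower and 0 of 7 erythroid markers stood out. The arrays also fell into 2 classes by Xist, the RNA of the inactive X chromosome, with 4 arrays between 12.33 and 12.96 (Ocn+ replicates 2 and 3, Osx+ replicates 2 and 4) and 3 between 4.87 and 5.79 (Ocn+ replicate 1, Osx+ replicates 1 and 3). With the group in the model, limma called 28.2% of all genes between these classes, so values within each class are given beside the group differences. Differences inside the low-Xist class have 1 Ocn+ array behind them.

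Hpgds, the hematopoietic prostaglandin D synthase of mast cells, macrophages and megakaryocytes, was the one member whose groups did not overlap, and it was lower in Ocn+ cells. Ptger3, the E receptor coupled to inhibition of cyclic AMP, had a higher mean in Ocn+ cells on 1 of its 2 probe sets. In the other 7 genes the arrays overlapped and the 95% interval of the difference held 0. By limma with Benjamini-Hochberg adjustment, 0 of 9 members were called, as were 0.00% of all genes. At an unadjusted p under 0.05, 2 of 9 members stood out, against 5.31% of all genes. The groups did not overlap for 1 of 9 members, against 6.90% of all genes, and 2.53% in the direction of Hpgds. Of the 9, 5 members had a higher mean in Ocn+ cells and 4 a lower one, where 52.7% of all genes were higher. The median difference was 0.25 for the members and 0.018 for all genes.

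**Figure D1:**
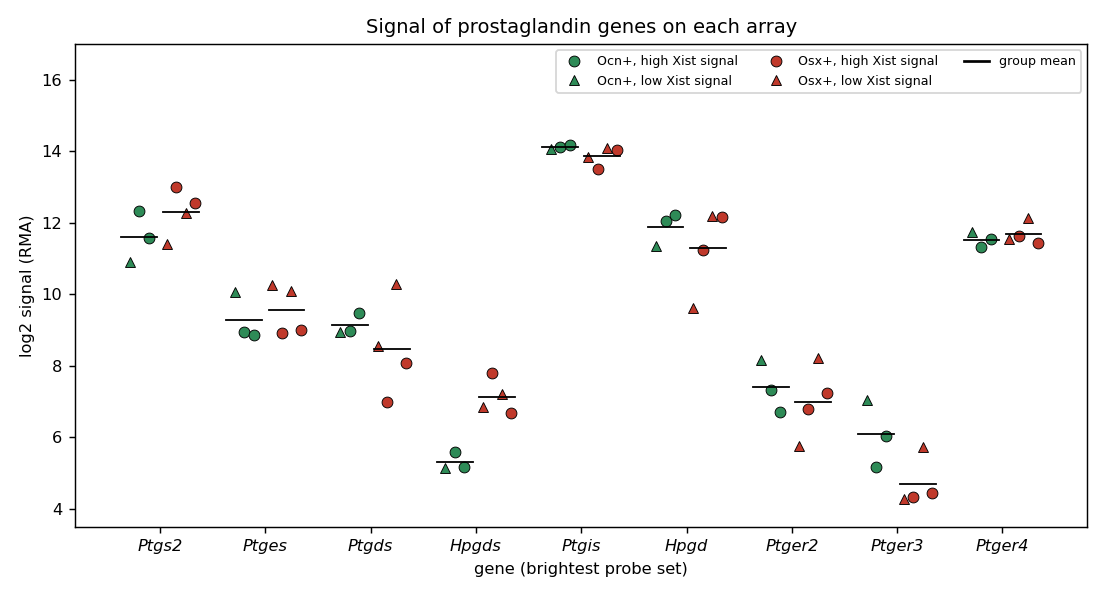
Log2 signal (vertical axis) of the 9 measured genes on each of the 7 arrays, green for Ocn+ and red for Osx+, circles for arrays with high and triangles for arrays with low Xist signal, bars for group means. Hpgds is the gene whose Ocn+ points (5.15 to 5.60) all lie below its Osx+ points (6.68 to 7.81), and Ptges splits by symbol shape rather than by colour.

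The upstream stretches of the members the results turn on are given here so that the sequence stands beside the values. They are the 250 bases before the start that RefSeq gives on GRCm38.p6, on the gene's own strand, with matches to 7 searched motifs in capitals. Hpgds lies on the minus strand at chr6:65144731-65144980, Ptgs2 on the plus strand at chr1:150099781-150100030 and Ptges on the minus strand at chr2:30903298-30903547.
Hpgds: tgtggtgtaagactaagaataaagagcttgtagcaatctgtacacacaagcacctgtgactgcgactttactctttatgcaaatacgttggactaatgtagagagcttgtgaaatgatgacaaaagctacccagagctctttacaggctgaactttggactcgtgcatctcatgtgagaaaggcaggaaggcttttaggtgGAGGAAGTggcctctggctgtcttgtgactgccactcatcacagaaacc
Ptgs2: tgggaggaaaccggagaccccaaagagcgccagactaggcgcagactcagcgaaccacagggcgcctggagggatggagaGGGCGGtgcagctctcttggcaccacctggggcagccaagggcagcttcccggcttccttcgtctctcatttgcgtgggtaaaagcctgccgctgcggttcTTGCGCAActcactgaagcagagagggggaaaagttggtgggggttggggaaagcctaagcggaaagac
Ptges: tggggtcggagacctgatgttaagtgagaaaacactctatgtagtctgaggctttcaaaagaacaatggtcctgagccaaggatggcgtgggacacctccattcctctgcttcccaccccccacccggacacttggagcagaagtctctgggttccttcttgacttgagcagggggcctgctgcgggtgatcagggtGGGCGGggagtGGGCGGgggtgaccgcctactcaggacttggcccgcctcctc
The motifs were a TATA box (TATAAA), an E-box (CACGTG), a CRE (TGACGTCA), a C/EBP motif (TTGCGCAA), a GATA motif (AGATAA), a PU.1 motif (GAGGAAGT) and a GC box (GGGCGG), searched on both strands over 300 bases including the first 50 of the transcript. The capitals in Hpgds mark the PU.1 motif, whose first base lies 49 bases before the start, and 3.20% of all 32851 promoters of this length hold it. Ptgs2 holds the C/EBP motif 69 bases before the start, which 0.183% of promoters hold, a GC box at 170 bases, and an E-box 17 bases after the start, outside the printed stretch, which 7.15% hold. Ptges holds GC boxes 53 and 42 bases before the start, a motif of 35.7% of promoters. A match is only a description of the letters, and nothing in these arrays measures binding.

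Ptgs2 encodes the inducible cyclooxygenase that feeds the pathway. Its signal was 10.89, 12.34 and 11.58 in Ocn+ replicates 1 to 3, and 11.41, 12.99, 12.27 and 12.56 in Osx+ replicates 1 to 4. The groups overlapped, with the 2 highest values in Osx+ replicates 2 and 4 and the lowest in Ocn+ replicate 1. The mean was 11.60 ± 0.73 (SD, n = 3) against 12.31 ± 0.67 (SD, n = 4), a difference of -0.70 (SE 0.46, 95% interval -1.79 to 0.38) with a limma adjusted p of 0.999. Within the high-Xist arrays the difference was -0.82 and within the low-Xist arrays -0.94. The other Ptgs2 probe set varied by only 0.49 over all arrays, against 2.10 for the brighter one, and gave a difference of -0.070 (SE 0.19). The size of the Ptgs2 difference thus depends on the probe set read.

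Ptges, the inducible synthase that makes prostaglandin E downstream of Ptgs2, followed the Xist classes and not the reporter. It stood at 10.07 in Ocn+ replicate 1, 10.27 in Osx+ replicate 1 and 10.09 in Osx+ replicate 3. In Ocn+ replicates 2 and 3 it stood at 8.95 and 8.86, and in Osx+ replicates 2 and 4 at 8.93 and 8.99. The 3 low-Xist arrays therefore lay together and the 4 high-Xist arrays lay together, with no overlap between the classes and full overlap between the reporter groups. The mean was 10.14 ± 0.11 (SD, n = 3) in low-Xist and 8.93 ± 0.056 (SD, n = 4) in high-Xist arrays. With the reporter group in the model, the high-Xist class differed by -1.197 (SE 0.11, limma adjusted p = 0.00425), which is 2.29-fold dimmer. This pattern was chosen after its values were seen. Over the pathway it is no more than the background, since 2 of 9 members were called between the classes against 28.2% of all genes, and 1 of 9 did not overlap between them against 34.3%. The other called member was Ptgs2, which on its brighter probe set ran the other way, 0.99 higher in the high-Xist arrays (SE 0.29, limma adjusted p = 0.0473), with overlap. The other Ptgs2 probe set did not show this, with means of 10.51 in high-Xist and 10.59 in low-Xist arrays. Between Ocn+ and Osx+ cells Ptges differed by -0.28 (SE 0.46), and by -0.077 (SE 0.11) with the class in the model. The other Ptges probe set gave class means of 9.24 and 8.41, and a reporter difference of -0.20. What sets the classes apart besides Xist is not in the labels.

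**Figure D2:**
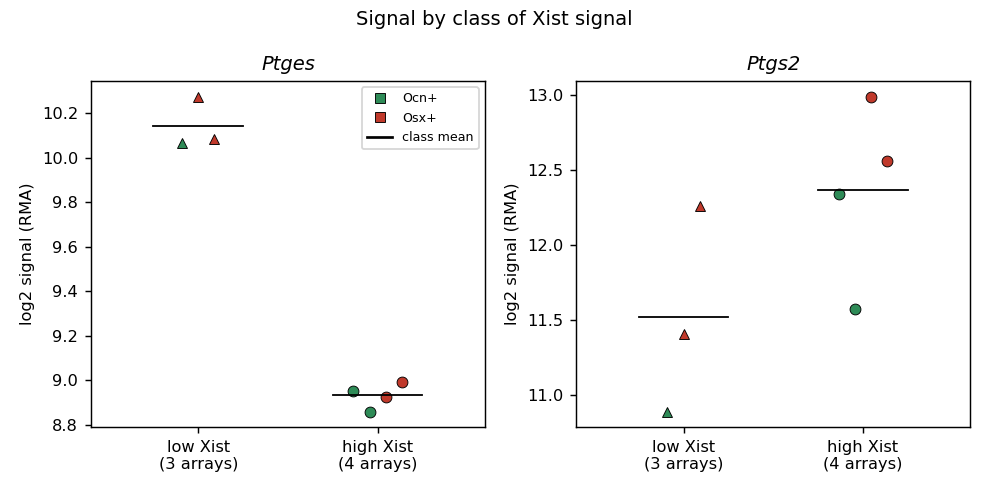
Log2 signal (vertical axis, not starting at 0) of Ptges and Ptgs2 by class of Xist signal, 3 low and 4 high arrays, green for Ocn+ and red for Osx+, bars for class means. Ptges lies between 10.07 and 10.27 in all low-Xist and between 8.86 and 8.99 in all high-Xist arrays, whichever the reporter, while the Ptgs2 classes overlap. The brightest probe set of each gene is shown.

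The D branch has 2 synthases of unrelated origin, Hpgds and Ptgds. Hpgds stood at 5.15, 5.60 and 5.19 in Ocn+ replicates 1 to 3. In Osx+ replicates 1 to 4 it stood at 6.85, 7.81, 7.21 and 6.68. All Ocn+ arrays lay below all Osx+ arrays, with a gap of 1.08 between the groups. The mean was 5.31 ± 0.25 (SD, n = 3) against 7.14 ± 0.50 (SD, n = 4), a 3.55-fold dimmer signal in Ocn+ cells. The difference was -1.83 (SE 0.30, 95% interval -2.52 to -1.13). Over all genes the limma adjusted p was 0.556 and the call was not made, although only 7 genes had a smaller unadjusted p than its 0.000412, and 1 of those was lower in Ocn+ cells. A 2-sided exact permutation test gave p = 0.0571, which with 3 and 4 arrays is the lowest possible. The difference was -1.85 within the high-Xist and -1.89 within the low-Xist arrays, so it was as large inside each class as overall. It lay between -1.98 and -1.61 when each array was left out in turn. No detection calls were used, so the Ocn+ signal may or may not exceed background, and the fold compares measured signals.

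Most macrophage markers differed in the same direction as Hpgds. Of 14 measured macrophage markers, 12 had a lower mean in Ocn+ cells and 6 of these had an unadjusted p under 0.05, against 1.83% of all genes in that direction. Their mean signal was 8.41 to 9.39 in Ocn+ and 9.58 to 10.45 in Osx+ arrays, and the log2 of their summed signal 14.14 to 14.999 and 14.47 to 15.78. Ms4a7, Mpeg1, the F4/80 gene Adgre1 and the mannose receptor Mrc1 differed by -1.85, -2.11, -1.63 and -1.996. The 2 with a higher mean in Ocn+ cells, as 52.7% of all genes had, were Csf1r (0.28) and Cd68 (0.26). Within the Ocn+ group Hpgds was highest in replicate 2 (5.60), the array where the macrophage mean was lowest (8.41). In the Osx+ group both were highest in replicate 2 (Hpgds 7.81, mean 10.45) and lowest in replicate 4 (6.68 and 9.58). The part of macrophages in the Hpgds difference was not tested. Fewer cells of a type and less RNA per cell cannot be told apart in sorted bulk samples. The mean of the 11 measured mast cell and basophil markers overlapped between the groups and was 5.29 to 6.95 in Ocn+ and 4.93 to 7.54 in Osx+ arrays. The mast cell protease genes Cpa3 and Cma1 were brightest in Osx+ replicate 3, at 8.69 and 10.80, and were at 4.36 and 4.21 in Osx+ replicate 4. In Ocn+ replicates 1 to 3 Cpa3 stood at 5.20, 5.30 and 4.56, and Cma1 at 7.98, 7.70 and 3.95. The group differences of Cpa3 and Cma1 were -0.77 and 0.18, in opposite directions. The part of mast cells in the Hpgds difference was not tested. Gata2 and Kit, which are listed with the mast cell markers and are also stem cell genes, differed by 1.84 and 1.51 and had the 2 unadjusted p-values under 0.05 among these markers. Of 9 measured megakaryocyte markers 1 had an unadjusted p under 0.05, the platelet chemokine Ppbp at -2.29. Their mean was 6.79 to 7.63 in Ocn+ and 6.78 to 7.50 in Osx+ arrays.

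Ptgds, the lipocalin-type D synthase best known from brain, was steady in Ocn+ and scattered in Osx+ cells. It stood at 8.94, 8.97 and 9.48 in the Ocn+ replicates and at 8.54, 6.999, 10.29 and 8.08 in the Osx+ replicates. Osx+ replicate 3 lay above all Ocn+ arrays and the other 3 Osx+ arrays below them. The difference was 0.65 (SE 0.70, limma adjusted p = 0.999), and it was 1.68 within the high-Xist and -0.48 within the low-Xist arrays, where replicate 3 belongs. Without that array it was 1.25 and the groups did not overlap. The other Ptgds probe set gave 0.61 and the same order of the groups. Whether Ptgds is more variable among Osx+ arrays was not tested, the SD being 0.30 (n = 3) against 1.37 (n = 4).

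Ptgis, the prostacyclin synthase of vessel walls and fibroblasts, had a high signal in every array. It stood at 14.07, 14.11 and 14.18 in Ocn+ and at 13.83, 13.50, 14.09 and 14.04 in Osx+ arrays. Osx+ replicate 3 overlapped the Ocn+ range by 0.023 and the other Osx+ arrays lay below it. The difference was 0.25 (SE 0.19, 95% interval -0.19 to 0.69), so a difference of more than 0.69 in favour of Ocn+ cells lies outside the interval.

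Hpgd, the dehydrogenase that inactivates prostaglandins E and F, was low in a single array. It stood at 11.34, 12.05 and 12.22 in Ocn+ and at 9.61, 11.23, 12.19 and 12.16 in Osx+ arrays. Osx+ replicate 1 lay 1.62 below the next array and the rest overlapped. The difference was 0.57 (SE 0.64, limma adjusted p = 0.999), and 0.0067 without that array. The other Hpgd probe set followed the first closely (Pearson r = 0.999 over 7 arrays, a description of the 2 probe sets in the same RNA).

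**Figure D3:**
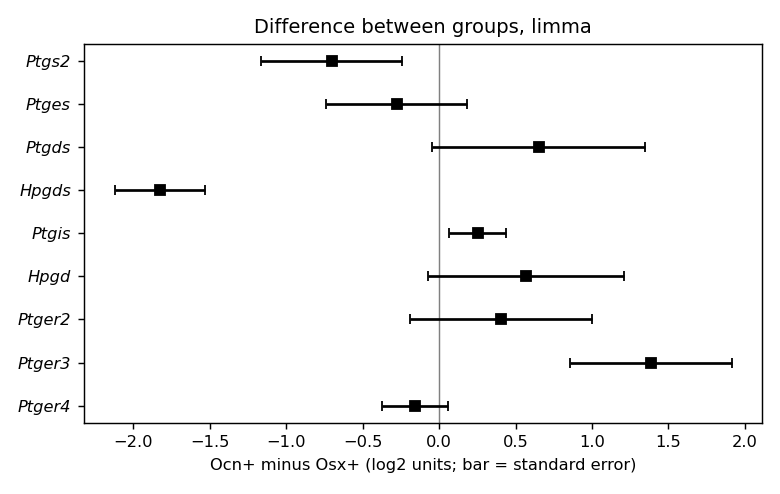
Difference in log2 signal between Ocn+ and Osx+ cells (horizontal axis) for the 9 measured genes, with bars of 1 standard error from limma, 3 against 4 arrays. Hpgds (-1.83, SE 0.30) and Ptger3 (1.39, SE 0.53) lie farthest from 0, and all adjusted p-values exceed 0.05.

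Of the receptors for prostaglandin E, Ptger4, which raises cyclic AMP and carries much of the bone-forming response, had nearly equal signals. It stood at 11.73, 11.32 and 11.55 in Ocn+ and at 11.55, 11.63, 12.14 and 11.45 in Osx+ arrays, and the groups overlapped throughout. The difference was -0.16 (SE 0.22, 95% interval -0.67 to 0.35), and 0.030 (SE 0.31) on its dimmer probe set. Ptger2, the other receptor that raises cyclic AMP, stood at 8.15, 7.32 and 6.72 in Ocn+ and at 5.75, 6.78, 8.21 and 7.23 in Osx+ arrays. Its highest and its lowest value were both Osx+, in replicates 3 and 1. The difference was 0.40 (SE 0.60, 95% interval -0.999 to 1.81), and -0.012 without Osx+ replicate 1.

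Ptger3, whose product lowers cyclic AMP, gave opposite answers on its 2 probe sets. On the one used here it stood at 7.05, 5.18 and 6.04 in Ocn+ and at 4.28, 4.34, 5.74 and 4.45 in Osx+ arrays. Ocn+ replicate 1 was highest, and Osx+ replicate 3 lay between the Ocn+ arrays, far from the other 3 of its group. The mean was 6.09 ± 0.94 (SD, n = 3) against 4.71 ± 0.69 (SD, n = 4), a difference of 1.39 (SE 0.53, 95% interval 0.15 to 2.63, limma adjusted p = 0.935). It was 1.21 within the high-Xist and 2.04 within the low-Xist arrays. The other probe set stood at 4.50, 5.57 and 5.35 in Ocn+ and at 4.86, 5.25, 5.17 and 6.18 in Osx+ arrays, a difference of -0.23 (SE 0.39). Its arrays ran against the first (Pearson r = -0.518 over 7 arrays, given as a description). The choice between the 2 is nearly a tie, since their means over all arrays were 5.30 and 5.27, and both are dim. Which probe set reads which transcript was not tested.

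With Osx+ replicate 3 left out the groups were separate for 4 of 9 members, Ptgds, Hpgds, Ptgis and Ptger3, as for 13.1% of all genes. Without Ocn+ replicate 1 the groups separated for Hpgds and Ptgis (13.4% of all genes), and without Ocn+ replicate 2 for Hpgds and Ptger3 (10.9%). Hpgds stayed separate in all 7 such comparisons, which was fixed in advance, since leaving out an array cannot make separate groups overlap. Osx+ replicate 3 was also the Osx+ array with the highest mean of 12 endothelial markers, at 9.09 against 6.35 to 8.07 in the other 3 and 9.80 to 10.19 in Ocn+ arrays. The part of these cells in the values of that array was not tested.

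The rest of the pathway was read from 8 lists with 97 genes, of which 85 were measured. None was called by limma, and 10 had an unadjusted p under 0.05, or 11.8% against 5.31% of all genes, 8 higher in Ocn+ cells (3.48% of all genes) and 2 lower (1.83%). The median difference of the 85 was 0.11. Slco2a1, the transporter that takes prostaglandins into cells for breakdown and is abundant in endothelium, had the second smallest p of the 85. It stood at 9.28, 9.21 and 9.57 in Ocn+ and at 6.99, 6.27, 8.30 and 7.002 in Osx+ arrays. All Ocn+ arrays lay above all Osx+ arrays, and Osx+ replicate 3 came nearest. The signal was 4.64-fold brighter in Ocn+ cells (difference 2.21, SE 0.44, limma adjusted p = 0.689), with 2.75 within the high-Xist and 1.64 within the low-Xist arrays. The 12 endothelial markers moved with it, all 12 higher in Ocn+ cells and 10 at an unadjusted p under 0.05, with the log2 of their summed signal 13.68 to 14.08 in Ocn+ and 10.59 to 13.19 in Osx+ arrays. Their part in the Slco2a1 difference was not tested. Also in the list of transport and breakdown, where 3 of 7 measured genes stood out, were the transporter Slco3a1 (0.72, SE 0.29) and Hsd11b1, an enzyme that activates glucocorticoids (1.22, SE 0.35). Hsd11b1 is included in these counts as listed, although that role lies outside prostaglandin transport and breakdown.

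**Figure D4:**
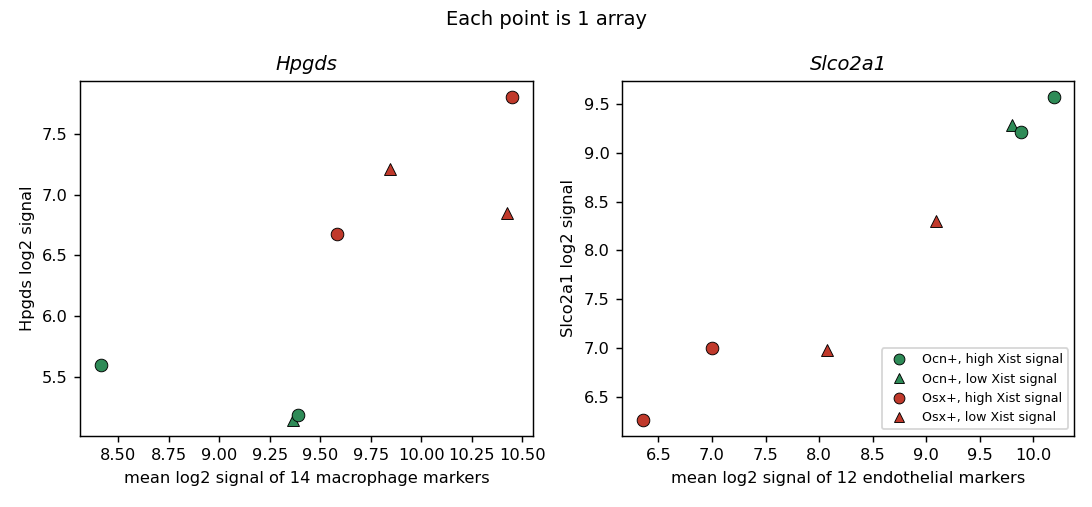
Log2 signal of Hpgds against the mean of 14 macrophage markers, and of Slco2a1 against the mean of 12 endothelial markers, 1 point for each of the 7 arrays, green for Ocn+ and red for Osx+, circles for high and triangles for low Xist signal. Hpgds and the macrophage mean are both lower in all Ocn+ arrays, and Slco2a1 and the endothelial mean are both higher in them, with Osx+ replicate 3 nearest at 8.30 and 9.09.

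Of 11 measured inducers of Ptgs2, 0 were called by limma and 3 had an unadjusted p under 0.05 (5.31% of all genes), 1 with a higher and 2 with a lower mean in Ocn+ cells. Cebpb, a transcription factor of the C/EBP family, stood at 12.30, 12.16 and 12.15 in Ocn+ and at 10.66, 10.96, 11.12 and 11.27 in Osx+ arrays. The groups did not overlap, and the difference was 1.199 (SE 0.19, limma adjusted p = 0.556), the smallest unadjusted p of the 85. Il1a, a cytokine that induces Ptgs2, had a lower mean in Ocn+ cells without overlap (-1.56, SE 0.36, limma adjusted p = 0.689), as had the factor Creb1 (-0.46, SE 0.18, limma adjusted p = 0.935). Of the steps that free arachidonic acid, 0 of 15 measured genes had an unadjusted p under 0.05, and Pla2g4a, the cytosolic phospholipase, differed by -0.38 (SE 0.38). Among 7 other synthesis genes the carbonyl reductase Cbr1 did (0.44, SE 0.18). Among 8 other prostanoid and fatty acid receptors it was Ptgfr, the receptor for prostaglandin F (0.97, SE 0.37, with overlap), and among 13 genes of leukotrienes and lipoxygenases Mgst2 (1.17, SE 0.39). Downstream, Adcy3, an adenylyl cyclase, differed by 0.65 (SE 0.20), 1 of 13 measured genes of cyclic AMP signalling. The 11 measured early targets of cyclic AMP had none at that level, and their median difference was 0.10.

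For 6 members the highest and lowest arrays differed by at least 2 log2 units, as for 16.1% of all genes. The genes of most similar pattern over the 7 arrays, among 6197 of at least median signal, were Fem1b and Vapa for Ptgs2, Ubqln1 and Nmd3 for Hpgds, and Gnai1 and Rida for Hpgd. For Ptgds they were Numb and Itm2c, for Ptger2 Fez2 and Smn1, and for Ptger3 Ppil2 and Vps35l. Pearson r ran from 0.955 to 0.987, as the highest of 6197 over 7 points that share 2 groups, 2 Xist classes and each array's RNA. Ubqln1 and Nmd3 differed by -0.34 and -0.36 between the groups, far less than Hpgds.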

How the data were processed

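Total RNA of 7 sorted samples was extracted with Trizol, amplified by NuGEN Ovation V2, labelled with biotin and hybridised to mouse Affymetrix arrays, per the labels' protocols. The authors deposited log2 values per probe set made with RMA, per the submitters' processing notes. No source used here gives its software or version. RMA equalises the arrays' distributions, so total RNA per cell cannot be read. Of 22690 probe sets, 20380 had 1 gene symbol, 691 several and 1555 none listed (64 were controls); 20351 were given a current symbol by Entrez identifier. Groups came from the titles. Ocn+ minus Osx+ was fitted with limma 3.58.1 in R 4.3.3 over 12393 genes, 2-sided, without a block, Benjamini-Hochberg adjusted, threshold 0.05. The fit was also run on simulated data with independent noise for each gene and no Xist classes. That run therefore cannot show how the fit behaves with the classes seen here. Folds are the brighter over the dimmer group mean, or, between Xist classes, from the coefficient with the group in the model.

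The members, gene lists and tests were chosen with earlier results of these data known. All members were named. From each other list genes with an unadjusted p under 0.05 were named, at most the 4 of smallest p; Cpa3, Cma1 and Pla2g4a were named after their values were seen. For each member ranging over at least 2 log2 units, the 2 genes of highest Pearson r were named. Alternatives were a replicate block, each array left out, a filter on dim genes, quantile and median scaling, another prior, array weights, other probe set choices and the Xist class.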

Additional observations from a re-analysis of the deposited data

Results flagged for a closer look

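Ptger3 in Osx+ replicate 3 stood at 5.74, far above the other 3 Osx+ arrays at 4.28 to 4.45, and its gap to the nearest was 0.884 of the group's range, above the 95% limit for 4 samples. It was 1 of 9 members examined in this way in the Osx+ group, and chance marks about 1 in 20 groups.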

How the results depend on the processing

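No member was called under any of the 167 alternative values of member differences, and 162 kept their direction. These are not independent checks. The filter on dim genes and the other prior leave a difference unchanged, and the replicate block repeats the differences found without Osx+ replicate 4. Hpgds kept its direction in all 18 of its alternatives (-1.98 to -1.57, smallest adjusted p 0.0546, with array weights). Most of these could not reverse it. Its groups do not overlap, so leaving arrays out keeps the sign, and with a single probe set the probe set choices return the same value. Reversed values were 0.030 for Ptger4 with the dimmer probe set, which is also the one of largest variance, -0.23 for Ptger3 with its other probe set, -0.48 for Ptgds within the low-Xist arrays, and -0.012 for Ptger2 without Osx+ replicate 1 (up to 0.81 with other arrays left out). The count of genes called, 0 as reported, was 97 with array weights, 19 within the high-Xist arrays, and 0 to 3 with each array left out. Weights ran from 0.24 to 0.46 in low-Xist arrays and from 1.03 to 6.02 in high-Xist arrays, highest in Ocn+ replicate 2. Values with array weights, those of Hpgds included, thus rest mostly on the high-Xist arrays. The cause of the differing counts was not tested. With each array left out, 1 to 4 members had groups that did not overlap and 4 to 5 were higher in Ocn+ cells. With the replicate block 0 genes were called and Hpgds differed by -1.98 (adjusted p = 0.400). Same-numbered arrays deviated together for numbers 1 and 2 (r = 0.626 and 0.447) and not for 3 (-0.304). Numbers 1 and 2 each join arrays of the same Xist class, and number 3 joins arrays of different classes. Same-class arrays of different numbers also deviated together (r = 0.407 to 0.568), so the number was not taken as a pairing. With 3 against 4 arrays and no detection calls, small differences and dim signals such as Ptger3 and Hpgds in Ocn+ cells cannot be resolved.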
